A study of Mus musculus with 78 samples.

Results

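The genes described here encode 10 enzymes, or core enzyme subunits, that add or remove methyl groups on lysine 4 and lysine 27 of histone H3 (H3K4 and H3K27). They were chosen by name, and their rows were found in the gene tables by Entrez identifier. All 10 were listed in both tables, among 15218 genes at the 4-cell stage, 15342 at the 8-cell stage and 16956 in either. The H3K27 writers were Ezh2, Eed and Suz12, the H3K27 erasers Kdm6a and Kdm6b, the H3K4 writers Kmt2b and Kmt2d, and the H3K4 erasers Kdm5b, Kdm1a and Kdm1b.

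Polycomb repressive complex PRC2 methylates H3K27 and is associated with silent developmental genes. Kmt2 family enzymes methylate H3K4 at promoters and enhancers, and lysine demethylases of the Kdm1, Kdm5 and Kdm6 families take these marks off. Before implantation both marks are remodelled on the embryonic genome while maternal RNA gives way to embryonic transcripts.

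Rainbow-seq is single-cell RNA sequencing of embryos whose cell lineage is read from a recombined Brainbow cassette in the same library. The embryos came from a cross of a stock with the CAG-Brainbow2.1 reporter in the Gt(ROSA)26Sor locus and a stock with the Tg(CAG-cre/Esr1*)5Amc transgene, so that every embryo of both stages carried a single copy of the Brainbow-2.1 construct and a single copy of the Cre gene, whose estrogen receptor fusion is driven by the CAG promoter. At the 2-cell stage all embryos were exposed briefly to 4-Hydroxytamoxifen and were then cultured in KSOM medium, so neither stage is an untreated or freshly collected embryo. The gene tables hold 24 blastomeres of 4-cell embryos and 26 of 8-cell embryos, and the labels list lineage-resolved blastomeres from 6 and 4 embryos at these stages.

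No column name of the tables points to a single embryo or lineage, and 5 of the 8-cell columns are named NA. With columns mapped by name only, a stage was handled as 1 sample and its blastomeres were not taken as replicates. The study lists read numbers per embryo and cell, but these were not used to place columns in embryos. No test was made, and the values below are a description of these cells without a replicate check. Values are FPKM, that is fragments scaled to the length of the gene and to the total of the library, and a gene was called present above an FPKM of 1. The fragments behind a value were recovered from the step size of the low values and came to between 6870000 and 16860000 per 4-cell blastomere and between 2330000 and 21730000 per 8-cell blastomere, rounded to 10000. Between 3009 and 8276 genes were above 1 in a 4-cell blastomere and between 3548 and 8078 in an 8-cell blastomere, and 3 blastomeres of each stage had fewer than 5000. Of 8 blastomere markers, 7 at the 4-cell stage and 6 at the 8-cell stage exceeded 1 in 50% or more of the cells. Leukocyte and blood markers were not listed, and of the cumulus cell markers only Amhr2 reached that share, while Ptx3, Fshr, Inha and Tnfaip6 were not listed. Gapdh was listed at 0 in 1 blastomere of each stage, so a value of 0 is given below as listed at 0 and not as absence of the RNA.

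The core of PRC2 was the most abundant group. Eed (Entrez 13626, chr7:89954654-89980976, minus strand, GRCm38), the subunit that binds trimethylated H3K27, ranged from 0.0313 to 153 FPKM with a median of 106 at the 4-cell stage. In 8-cell blastomeres it ranged from 25 to 273 with a median of 125. It had the highest median of the 10 genes at both stages, and 23 of 24 and 26 of 26 blastomeres were above 1. The low value of 0.0313 stood apart from the next lowest 4-cell value of 53.8.

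Suz12 (Entrez 52615, chr11:79993106-80034123, plus strand), the scaffold subunit that holds the complex together, ranged from 0.692 to 82.8 FPKM at the 4-cell stage, with a median of 36.5. At the 8-cell stage it ranged from 20.2 to 171, with a median of 66.6. Here 10 of the 26 8-cell blastomeres lay above the highest 4-cell blastomere, and 20 lay above the 4-cell median. All 5 columns named NA, at 110 to 136 FPKM, were among these 10. How the 10 divide over embryos is not given by the column names. The low 4-cell value of 0.692, against a next lowest of 10.4, was in the same blastomere as the low Eed value. Ezh2 was at 33.1 in that blastomere, close to its median.

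Ezh2 (Entrez 14056, chr6:47530274-47595270, minus strand), the subunit with the methyltransferase activity, was listed at 0 in 1 4-cell blastomere and otherwise ranged from 7.38 to 116 FPKM, with a median of 32.5 over all 24. That blastomere was among the 3 with fewer than 5000 genes above 1. The 8-cell range was 7.38 to 135 and the 8-cell median 42.6, with all 26 blastomeres above 1. The ranges of the stages overlapped almost fully, and 1 8-cell blastomere was above the highest 4-cell value.

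The H3K27 erasers were lower and differed from each other in how many blastomeres held them. Kdm6a (Entrez 22289, chrX:18160862-18279936, plus strand), also called Utx, was at 0 to 16.4 FPKM with a median of 4.87 at the 4-cell stage, and 16 of 24 blastomeres were above 1. In 8-cell blastomeres it was at 0 to 33 with a median of 9.30, and 21 of 26 were above 1. It was listed at 0 in 5 4-cell and 2 8-cell blastomeres, while 10 8-cell blastomeres exceeded the 4-cell maximum.

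Kdm6b (Entrez 216850, chr11:69398508-69420367, minus strand), also called Jmjd3, was low but nearly always present. It ranged from 1.21 to 11.3 FPKM at the 4-cell stage with a median of 3.38, above 1 in all 24 blastomeres. The 8-cell values ran from 0.972 to 19.2 with a median of 6.81, above 1 in 25 of 26. The highest value was in the 8-cell blastomere with the fewest recovered fragments, 2330000, and 3548 genes above 1. The next highest was 15.3. As for Kdm6a, 10 8-cell blastomeres lay above the highest 4-cell blastomere.

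The H3K4 writers were the lowest group. Kmt2d (Entrez 381022, chr15:98831669-98874077, minus strand), also known as Mll4 and best known as an enhancer monomethyltransferase, ranged from 0.0872 to 15.6 FPKM at the 4-cell stage with a median of 1.37. The 8-cell values ran from 0 to 8.59 with a median of 1.01. The value of 0 was in the 8-cell blastomere with the fewest recovered fragments, 2330000. Kmt2d was above 1 in 15 of 24 and 13 of 26 blastomeres. Kmt2d has 19827 exon bases, so that an FPKM of 1 stood for a median of 265 fragments of it per 4-cell blastomere and 341 per 8-cell blastomere.

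Kmt2b (Entrez 75410, chr7:30568855-30589056, minus strand), also known as Mll2 and the H3K4 methyltransferase required in the oocyte, was listed at 0 in 14 of 24 4-cell blastomeres. Only 2 of the 24 were above 1, at 4.07 and 9.14 FPKM. Later, in 8-cell embryos, 11 of 26 were listed at 0 and 11 were above 1, with a median of 0.165 and a highest value of 6.71. The share above 1 was 8.33% (exact binomial 95% interval 1.03% to 27%) at the 4-cell stage and 42.3% (23.4% to 63.1%) at the 8-cell stage. This gap depended on the threshold, since 8 of 24 and 13 of 26 blastomeres were above 0.1 and 1 of 24 and 1 of 26 above 5. The intervals cover counting error only and take blastomeres as independent, which cells of shared embryos are not. An FPKM of 1 stood for at least 58.3 fragments of Kmt2b in a 4-cell blastomere and 19.8 in an 8-cell blastomere.

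Of the H3K4 erasers, Kdm5b (Entrez 75605, chr1:134560178-134632878, plus strand), which demethylates trimethylated H3K4, was at 27.4 to 114 FPKM with a median of 61.9 at the 4-cell stage. The 8-cell values lay at 4.86 to 115 with a median of 43.6. Every blastomere of both stages was above 1, and by median Kdm5b had rank 2 of the 10 genes at the 4-cell stage and rank 3 at the 8-cell stage. The highest values of the stages were close to each other, while 18 of 26 8-cell blastomeres lay below the 4-cell median.

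Kdm1a (Entrez 99982, chr4:136550533-136602787, minus strand), also called Lsd1, removes mono- and dimethylation of H3K4 in complex with Rcor proteins. It ranged from 0.0214 to 67.7 FPKM at the 4-cell stage with a median of 12.3, and 19 of 24 blastomeres were above 1. Its 8-cell values lay between 0.981 and 65.5, the median was 16.2, and 25 of 26 were above 1. The 5 low 4-cell blastomeres held between 0.0214 and 0.945, whereas the other 19 held 3.07 or more.

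Kdm1b (Entrez 218214, chr13:47043373-47085279, plus strand), also called Lsd2, is the paralogue of Kdm1a that acts in the growing oocyte. At the 4-cell stage it was listed at 0 in 6 of 24 blastomeres and was above 1 in 13, with a median of 2.70 and a highest value of 26.2. At the 8-cell stage it was listed at 0 in 19 of 26 blastomeres, so that the median was 0, and was above 1 in 5. Those 5 blastomeres held 5.39 to 10.6, and the next highest value was 0.512. The share above 1 was 54.2% (32.8% to 74.4%) at the 4-cell stage and 19.2% (6.55% to 39.4%) at the 8-cell stage, with intervals that have the same limits as those of Kmt2b. Above 5 FPKM the shares lay closer, at 29.2% (7 of 24) and 19.2% (5 of 26). The 3 fragments that a count of 0 allows stood for 0.0277 to 0.258 FPKM of Kdm1b in the 8-cell blastomeres, which is below the 4-cell median of the gene. This bound covers sequenced fragments and not RNA lost before sequencing, so it does not limit the RNA in these cells. Over 7 oocyte and maternal markers, the summed level was 31.2 to 230 FPKM with a median of 98.0 at the 4-cell stage and 13.5 to 225 with a median of 55.7 at the 8-cell stage, and their part in the Kdm1b difference was not tested. Kdm1b shares 513 exon bases, 10.3% of its length, with Dek on the other strand, and the other 9 genes share none.

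**Figure D1:**
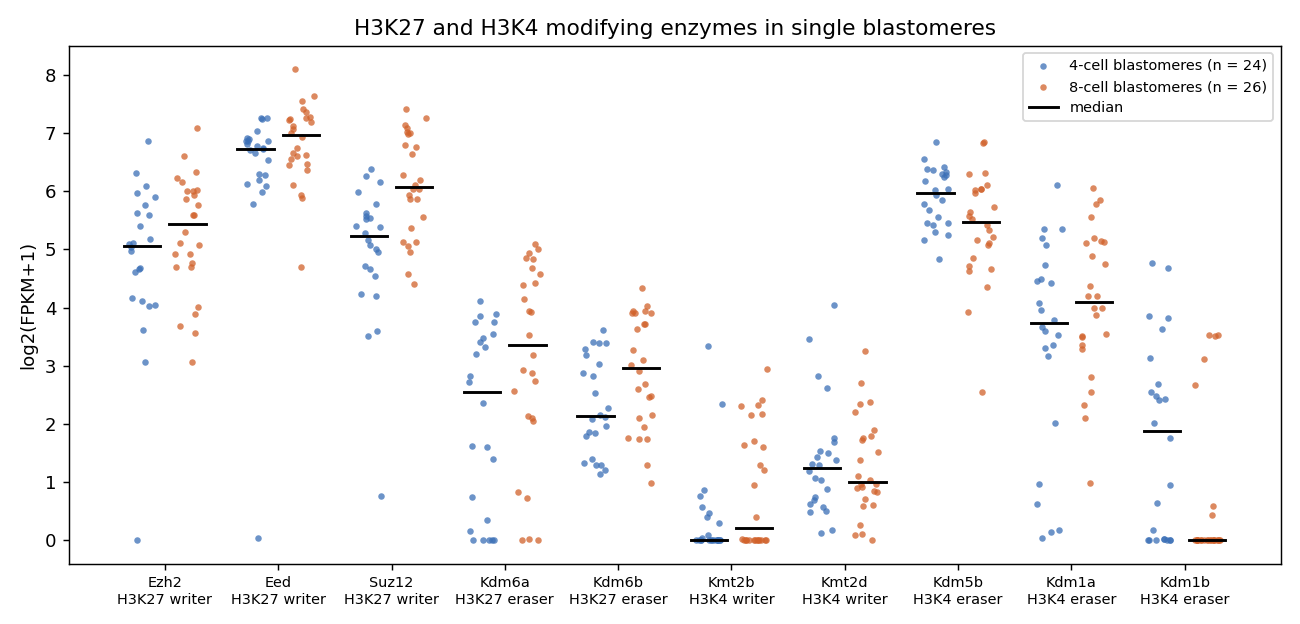
Level of each of the 10 enzymes in every blastomere, as log2(FPKM+1) on the y axis, with 24 4-cell blastomeres (blue) and 26 8-cell blastomeres (orange) and the median of each stage as a black bar. Eed, Suz12, Ezh2 and Kdm5b sit high in nearly all cells, and 4-cell Kmt2b and 8-cell Kdm1b sit mostly at 0. Kdm6a and 4-cell Kdm1b spread from 0 upwards, and 4-cell Kdm1a from 0.0214 FPKM upwards.

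Ordered by median FPKM, the 4-cell stage ran Eed, Kdm5b, Suz12, Ezh2, Kdm1a, Kdm6a, Kdm6b, Kdm1b, Kmt2d and Kmt2b. The 8-cell stage ran Eed, Suz12, Kdm5b, Ezh2, Kdm1a, Kdm6a, Kdm6b, Kmt2d, Kmt2b and Kdm1b. Several neighbours in the order were not separated within blastomeres. At the 4-cell stage Suz12 exceeded Ezh2 in 14 of 24 blastomeres, Kdm6a exceeded Kdm6b in 11 and Kdm1b exceeded Kmt2d in 12. At the 8-cell stage Kdm5b exceeded Ezh2 in 15 of 26 and Kmt2b exceeded Kdm1b in 12. The steps held by the most blastomeres were Eed over Kdm5b and Kmt2d over Kmt2b, each in 21 of 24 at the 4-cell stage, and Kdm1a over Kdm6a and Kdm6b over Kmt2d, each in 21 of 26 at the 8-cell stage.

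The stages were compared as the median log2(FPKM+1) of the 8-cell blastomeres minus that of the 4-cell blastomeres, over the 7248 genes that both tables list and that exceeded 1 in 50% or more of the cells of a stage. All 5 H3K27 genes had the higher median at the 8-cell stage, whether writer or eraser, as did 44.4% of all tested genes. The differences were 0.85 for Suz12, 0.83 for Kdm6b, 0.81 for Kdm6a, 0.38 for Ezh2 and 0.24 for Eed, and those of Ezh2 and Eed were near 0 under some choices of blastomeres given below. The H3K4 genes were mixed, with 0.37 for Kdm1a, -0.24 for Kmt2d, -0.50 for Kdm5b and -1.88 for Kdm1b. Kmt2b, at 0.21, did not reach the filter and was left out of the counts.

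Of the 9 genes that passed the filter, 0 were more than 2-fold higher at the 8-cell stage and 1, Kdm1b, was more than 2-fold higher at the 4-cell stage. Over all 7248 genes, 9.71% were more than 2-fold higher at the 8-cell stage and 18.2% at the 4-cell stage, 27.9% in either direction. By the median, the count of these enzymes past 2-fold was no larger than that background. With the mean in place of the median it was 3 of 9, with Suz12 and Kdm6a higher at the 8-cell stage, against 20.4% of all tested genes in either direction and 8.22% higher at the 8-cell stage. Kdm1b passed the filter only through the 4-cell stage, and its 8-cell median was listed at 0, so no fold is given for it.

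The median difference was 0.37 over the 9 genes and -0.11 over all tested genes, whose middle 90% ran from -2.27 to 1.44. It was 0.81 over the 5 H3K27 genes and -0.37 over the 4 H3K4 genes that passed, against 0.31 over 4 writers and 0.37 over 5 erasers. The H3K4, eraser and 9-gene medians include Kdm1b, which passed only through the stage in which it was higher. Kmt2b, at 0.21, was left out by the same filter, so no conclusion on the marks is drawn from these medians. Suz12 lay above 87.3% of all tested genes and Kdm1b above 7.67%. The blastomeres of the stages overlapped for each of the 10 genes, and they were separate for 0% of all tested genes.

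**Figure D2:**
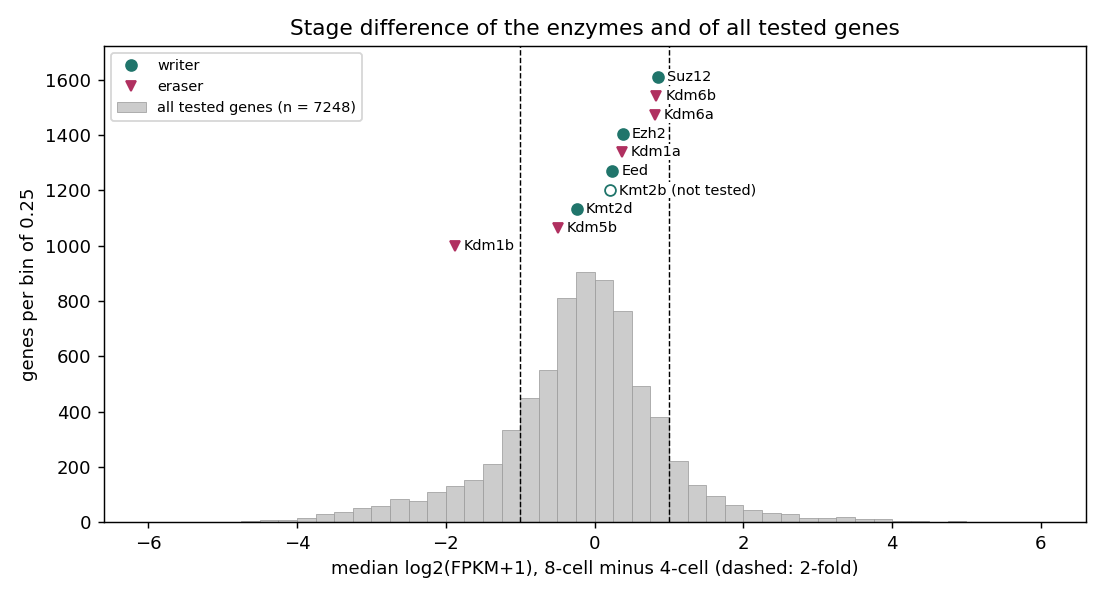
Stage difference of each enzyme (markers, spread vertically for legibility only) over the histogram of all 7248 tested genes, with the 8-cell minus 4-cell median log2(FPKM+1) on the x axis, genes per bin on the y axis and dashed lines at 2-fold. Circles are writers and triangles erasers, Kmt2b (open circle) did not pass the filter, and only Kdm1b lies outside the dashed lines.

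Some of these differences moved with the choice of blastomeres. The 5 columns named NA held Suz12 at 110 to 136 FPKM with a median of 127, against 20.2 to 171 with a median of 60.4 in the other 21 8-cell blastomeres. Kdm5b had a median of 68.3 in these 5 and 35.9 in the others, and Kdm1a 9.27 and 17.4. Kdm6b had medians of 11.4 and 5.08, and Ezh2 of 53.5 and 33.7. Without these 5 columns the stage difference was 0.05 for Ezh2, 0.01 for Kmt2b, 0.47 for Kdm6b and -0.77 for Kdm5b, while Suz12 was at 0.71, Kdm6a at 0.98 and Eed at 0.39. The difference of Kmt2b already ran from 0.02 to 0.39 when single blastomeres were left out. With a pseudocount of 0.1 it was 1.13, past 2-fold. What the name NA stands for was not settled by the labels. Without the gene-poor blastomeres, those under 5000 genes above 1, the difference of Kdm6a was 1.21, past 2-fold, while Eed was at -0.01 and Kdm5b at -0.26. In that setting Kdm6b was lower, at 0.53, and Ezh2 and Suz12 were higher, at 0.56 and 0.90. The difference of Kdm1b ranged from -4.80 to -1.08 over the 57 settings tried, which include leaving out each blastomere, and was past 2-fold in each. Its size follows the pseudocount, at -1.88 with 1 and -4.80 with 0.1, because the 8-cell median was listed at 0. Kdm1b passed the filter only through the 4-cell stage, so this steadiness adds no support for the difference.

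Writers and erasers of each mark were then set against each other within single blastomeres, as the log2 ratio of their summed FPKM with a pseudocount of 1 on each sum. For H3K27, the writer sum had a median of 169 FPKM and the eraser sum of 9.61 at the 4-cell stage. The 8-cell medians were 252 and 19.99. By these sums writers exceeded erasers in 24 of 24 and 26 of 26 blastomeres, with a median log2 ratio of 3.98 (SD 0.983 between blastomeres, range 1.03 to 5.77) and 3.66 (SD 0.931, range 1.91 to 5.63). The lowest of these, 1.03, was the 4-cell blastomere in which Eed and Suz12 were both low, and the next lowest was 2.66. As a difference of mean log2 values, writers were higher in 23 of the 24.

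For H3K4 the order was the opposite. The writer sum had a median of 1.47 FPKM and the eraser sum of 84.9 at the 4-cell stage, and 2.32 and 67.5 at the 8-cell stage. Erasers exceeded writers in 24 of 24 and 26 of 26 blastomeres, with a median log2 ratio of -4.96 (SD 1.02, range -6.33 to -2.79) and -4.32 (SD 1.15, range -6.08 to -1.85). The lowest 8-cell ratio, -6.08, was in the blastomere with the fewest recovered fragments, 2330000, where the writer sum was 0. The next lowest was -5.99. As a difference of mean log2 values the medians were -2.65 and -2.31, and writers were higher in 0 blastomeres of either stage. Whether the medians of the stages differed was not tested for either mark, because the SDs describe single blastomeres and not stages. For H3K27 the order of the stages turned with the genes counted, and without Eed and Kdm6a the median was 3.68 in 4-cell and 3.94 in 8-cell blastomeres.

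The size of the H3K4 ratio depended on which genes were counted. When the paralogues Kmt2a and Kmt2c were added to the writers and Kdm5a, Kdm5c and Kdm5d to the erasers, a choice made after the values were seen, the median was -2.76 in 4-cell and -2.46 in 8-cell blastomeres. Erasers were then 6.76-fold and 5.50-fold above writers, instead of 31.2-fold and 19.9-fold, and still higher in every blastomere. The pseudocount of 1 was close in size to the writer sums without paralogues, whose medians were 1.47 and 2.32 FPKM. The 31.2-fold and 19.9-fold values therefore also depend on the pseudocount. For H3K27, adding Ezh1 and Uty gave 4.15 and 3.46. These are ratios of RNA, the sums hold unequal numbers of genes, and the PRC2 subunits act together and not as separate enzymes.

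**Figure D3:**
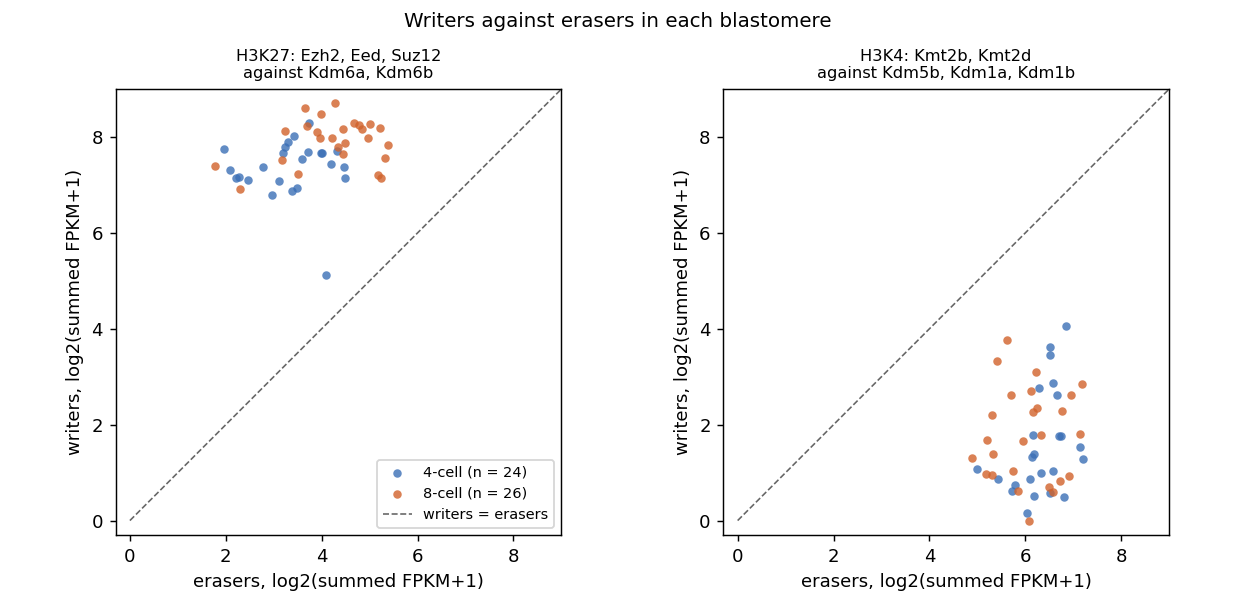
Summed writers (y axis) against summed erasers (x axis) in each blastomere, both as log2(summed FPKM+1), for H3K27 (left) and H3K4 (right), with 24 4-cell (blue) and 26 8-cell (orange) blastomeres and the line of equality dashed. All points of H3K27 lie above the line and all points of H3K4 below it.

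Across blastomeres, Spearman's rho between the writer and eraser sums was 0.0983 and 0.0414 for H3K27 at the 4-cell and 8-cell stages, and 0.417 and 0.0667 for H3K4. The points share embryos, depth and the number of genes detected, and no p-value is given for any correlation here.

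Over the 45 pairs of the 10 genes, the median rho was 0.0943 at the 4-cell stage, with 30 pairs above 0, and 0.0564 at the 8-cell stage, with 28 above 0. Over all pairs of genes that exceeded 1 in 50% or more of the cells, the medians were 0.0522 (6878 genes) and 0.0202 (6325 genes). The middle 95% of those pairs ran from -0.476 to 0.554 and from -0.442 to 0.471. Of the 45 enzyme pairs, 0 in 4-cell and 2 in 8-cell blastomeres lay outside these ranges. Kmt2b at both stages and Kdm1b at the 8-cell stage did not pass the filter of that background, so their pairs are set beside genes unlike them. Of the pairs of the enzymes that passed, 0 of 36 and 1 of 28 lay outside.

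By class, the median over the 10 pairs of writers was 0.167 at the 4-cell stage and all 10 were above 0, from 0.00783 to 0.383, against 57.5% of the background pairs. Without the gene-poor blastomeres 9 of the 10 were above 0. These 10 pairs are made of 5 genes over the same blastomeres, so their signs are not independent. The pairs with Kmt2b are also outside that background. The 8-cell median was 0.0757, with 6 of 10 above 0, against 53.3% of the background pairs. Pairs of erasers had medians of -0.0712 and 0.0417, and the 25 pairs of a writer with an eraser 0.0548 and 0.0633. The background medians of 0.0522 and 0.0202 lie within the range of every class. The sign of rho was the same at both stages for 25 of 45 pairs, 19 above 0 and 6 below.

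Within PRC2, Ezh2 and Suz12 had a rho of 0.38 in 4-cell and 0.31 in 8-cell blastomeres, Ezh2 and Eed 0.01 and 0.21, and Eed and Suz12 0.16 and -0.16. The sign of the last value depended on the columns named NA, without which it was 0.07, and the 4-cell value of that pair was 0.05 without the gene-poor blastomeres. Without the gene-poor blastomeres the 8-cell value of Ezh2 with Eed was 0.44. The H3K27 erasers Kdm6a and Kdm6b had -0.30 and -0.23, and the latter was -0.01 without the gene-poor blastomeres. The 2 pairs outside the background range were Kdm6b with Kdm1b, at -0.51, and Suz12 with Kdm5b, at 0.50, both at the 8-cell stage. The latter was 0.27 over the 21 blastomeres without the columns named NA, in which both genes were higher. The former was -0.55 without those columns and -0.36 when the number of genes above 1 was held fixed, with which Kdm6b itself had a rho of -0.52 at that stage. It rests on 5 blastomeres with Kdm1b above 1, which held Kdm6b at 0.972 to 7.09 FPKM with a median of 2.40, against 1.45 to 19.2 with a median of 8.64 in the other 21. At the 4-cell stage the highest rho was 0.50 for Kmt2b with Kdm1a, with Kmt2b listed at 0 in 14 of the 24 blastomeres, and the lowest was -0.43 for Kdm6a with Kdm1b.

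**Figure D4:**
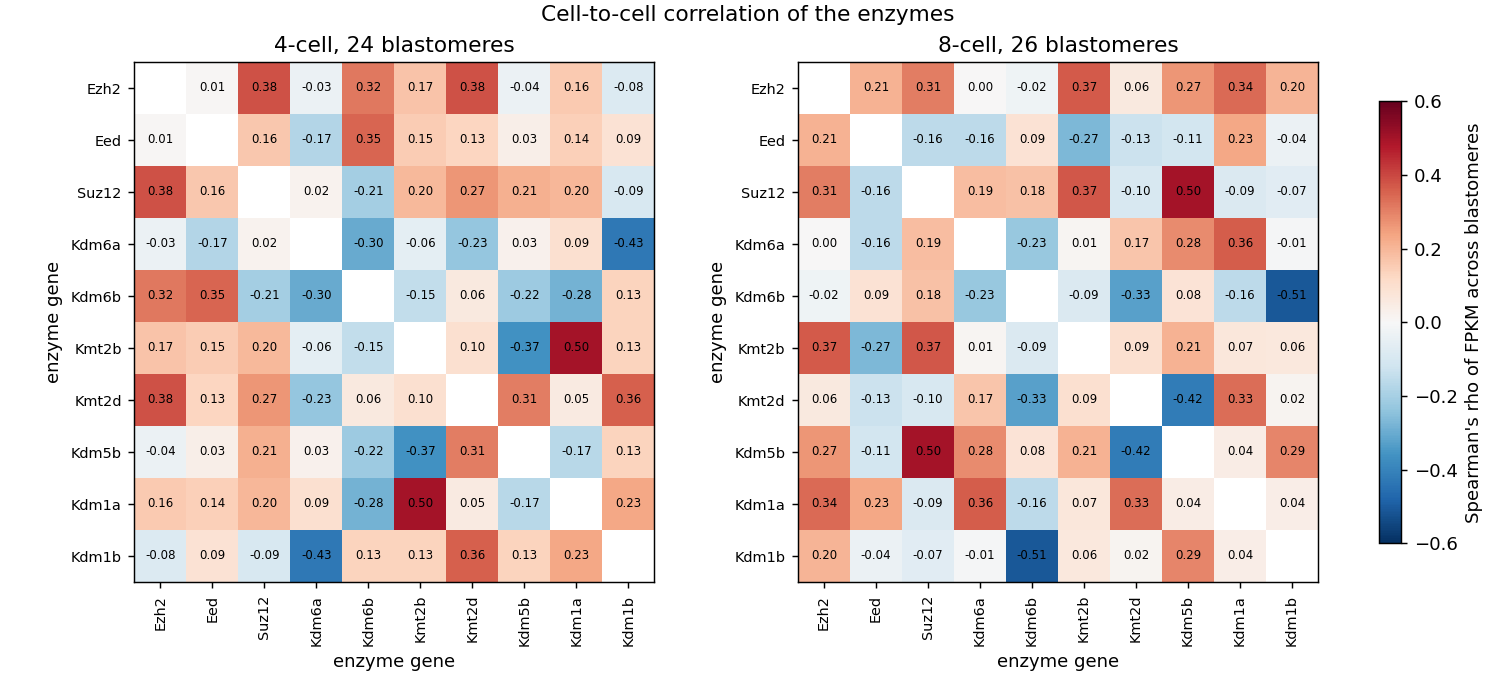
Spearman's rho of FPKM across the 24 4-cell blastomeres (left) and 26 8-cell blastomeres (right) for each pair of the 10 enzymes on both axes, with colour from -0.6 (blue) to 0.6 (red) and the value in each square. Most squares are pale, and the strongest are Kmt2b with Kdm1a at the 4-cell stage (0.50), Suz12 with Kdm5b (0.50) and Kdm6b with Kdm1b (-0.51) at the 8-cell stage.

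The enzymes differed in how evenly they were spread over blastomeres. The standard deviation of log2(FPKM+1) was set beside that of all genes whose median lay within 0.5 of the same level. By this comparison Kdm6b was the most even, with an SD of 0.821 at the 4-cell stage and 0.969 at the 8-cell stage, and only 1.29% of 1006 genes and 2.83% of 1061 genes at its level had a lower one. Genes of at least 5000 exon bases at its level had a median SD of 1.33 and 1.43, against 1.49 and 1.69 for all genes there, and among them these shares were 1.56% of 320 and 4.67% of 300. Genes at the level of Kdm6b were at or below 1 in a median of 8 of the 24 4-cell blastomeres, while Kdm6b itself was above 1 in each. This comparison was chosen with the values known.

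Kdm5b was also even at the 4-cell stage, with an SD of 0.513 that exceeded that of 3.01% of 831 genes at its level, or 14% of 57 long genes. Its 8-cell SD was 0.931, which exceeded that of 21.4% of the genes at its level, or 49.4% of 77 long genes. Kdm1a had an SD of 1.81 at the 4-cell stage, above that of 63.3% of 1228 genes, and of 1.27 at the 8-cell stage, above that of 17.8% of 1160. Among long genes these shares were 96.3% of 246 and 43.2% of 183, although Kdm1a itself has 3087 exon bases. The place of Kdm6a also depended on the genes it was set against, with SDs of 1.57 and 1.68 that exceeded those of 49.2% and 43.3% of the genes at its level but 82.3% and 81.1% of the long ones. Kdm1b, with 4987 exon bases, had an SD of 1.66 at the 4-cell stage, above that of 72.8% of 942 genes, or 94.2% of 309 long genes.

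Closely related genes showed which member of each pair supplied most of the RNA. Ezh1, the other H3K27 methyltransferase of PRC2 and no member of the set of 10, was at 0 to 58.7 FPKM with a median of 13 at the 4-cell stage, above 1 in 22 of 24 blastomeres. The 8-cell values lay at 0 to 26.9 with a median of 2.06, above 1 in 14 of 26 and listed at 0 in 9. The stage difference was -2.20, and 94.4% of all tested genes lay higher. Ezh1 made up a median of 35.9% of the summed FPKM of Ezh1 and Ezh2 at the 4-cell stage and 4.82% at the 8-cell stage, and exceeded Ezh2 in 6 of 24 and 0 of 26 blastomeres. By the median Ezh2 thus held the larger share at both stages. At the 8-cell stage the share of Ezh1 ranged from 0% to 44.5%, and Ezh1 was above 10 FPKM in 7 of 26 blastomeres.

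Kdm1b against Kdm1a followed the same course. Kdm1b made up a median of 16.5% of their sum at the 4-cell stage and 0% at the 8-cell stage, and exceeded Kdm1a in 5 of 24 and 1 of 26 blastomeres. In both pairs the paralogue that was lower at the 8-cell stage was also the lesser at the 4-cell stage.

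Kmt2c, the paralogue of Kmt2d, exceeded it in all 24 and all 26 blastomeres. Kmt2c ranged from 2.61 to 80.8 FPKM with a median of 9.21 at the 4-cell stage and from 0.0764 to 29.6 with a median of 11.2 at the 8-cell stage. Kmt2d made up a median of 11.9% and 11.6% of their sum, and their rho was 0.623 and 0.463. Kmt2a, the paralogue of Kmt2b, was above 1 in 2 4-cell blastomeres and in 0 8-cell blastomeres.

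Among the other demethylases, Kdm5a was lower than Kdm5b in 24 of 24 and 25 of 26 blastomeres, with medians of 6.41 and 5.33 FPKM. Kdm6b made up a median of 53.7% of the sum of Kdm6a and Kdm6b at the 4-cell stage and 35.8% at the 8-cell stage. All 24 4-cell blastomeres were above 1 for at least Kdm6b, and 8 of them were not above 1 for Kdm6a. Kdm5c, like Kdm6a an X-linked demethylase, had medians of 1.28 and 3.26 FPKM and was above 1 in 13 of 24 and 17 of 26. Kdm5c and Kdm6a were both listed at 0 in 4 of the 4-cell blastomeres, where Kdm6a was at 0 in 5 and Kdm5c in 4, and their rho was 0.354 and 0.527. This pair was looked at after the values were seen. Of the Y-linked paralogues, Uty was above 1 in 2 and 6 blastomeres and Kdm5d in 0 and 1.

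**Figure D5:**
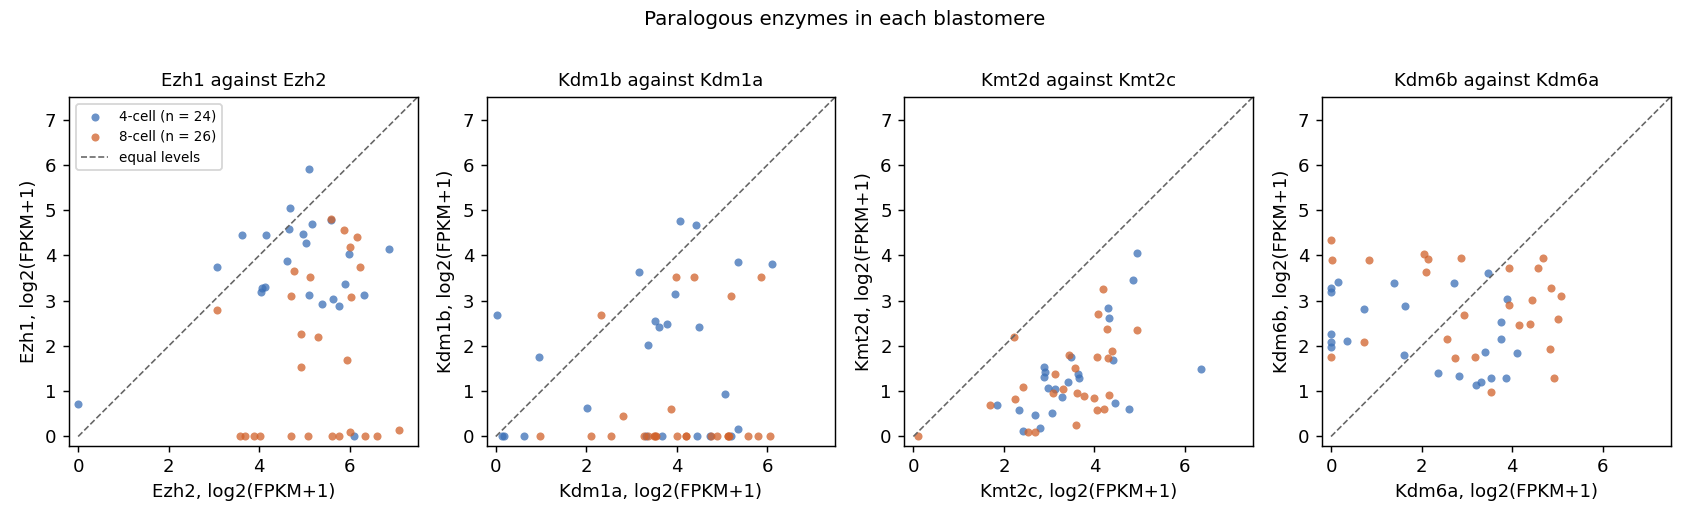
Paralogous pairs in each blastomere, as log2(FPKM+1) on both axes, with 24 4-cell (blue) and 26 8-cell (orange) blastomeres and equality dashed. Ezh1 exceeds Ezh2 in 6 4-cell and 0 8-cell blastomeres, Kdm1b lies mostly at 0 at the 8-cell stage, Kmt2d is below Kmt2c in every blastomere, and Kdm6b keeps off the 0 line that Kdm6a reaches.

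The partners of these enzymes were read from 5 lists of 54 genes, of which 53 were listed in both tables and 41 passed the filter. Among these 41, 4 were more than 2-fold higher at the 8-cell stage and 8 more than 2-fold higher at the 4-cell stage, against 9.71% and 18.2% of all tested genes. The median difference over the 41 genes was 0.16, against -0.11 over all tested genes. The counts of single lists below have the same background, and none is taken as a result about its list. Of these 12 genes, 6 (Men1, Rcor3, Phf21a, Cbx8, Phc1 and Phc2) passed the filter only through the stage in which they were higher, so that a difference was built into their choice.

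Of 13 tested H3K4 writers and shared subunits, 2 were higher at the 8-cell stage, 2 at the 4-cell stage and 9 within 2-fold, with a median of 0.32. Over all tested genes the shares were 9.71% and 18.2% and the median was -0.11. Cxxc1, the CpG-binding subunit of the Setd1 complexes, had medians of 3.12 FPKM in 4-cell and 9.44 in 8-cell blastomeres. The shared core subunits differed in level, with medians of 107 and 142 FPKM for Wdr5, 67.8 and 84.9 for Ash2l and 117 and 90.7 for Dpy30, but 6.98 and 6.19 for Rbbp5. These 4 were named after their values were seen.

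Of 9 tested H3K4 erasers and partners, 1 was higher at the 8-cell stage, 2 at the 4-cell stage and 6 within 2-fold, with a median of -0.05. The all-gene shares were 9.71% and 18.2%, with a median of -0.11. Rcor1, the CoREST scaffold that binds Kdm1a, had medians of 13.6 FPKM in 4-cell and 3.65 in 8-cell blastomeres, a difference of -1.66. Its paralogue Rcor3 went the other way, from a median listed at 0 to 2.52, and was above 1 in 10 of 24 and 19 of 26 blastomeres. Rcor3 passed the filter only through the 8-cell stage, so this direction was built into its choice. Kdm1a itself differed by 0.37 between the stages.

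Of 6 tested PRC2 partners, 0 were past 2-fold at the 8-cell stage and 1, Ezh1, at the 4-cell stage, with a median of 0.19. Of 13 tested genes of Polycomb repressive complex PRC1, which ubiquitinates histone H2A, 1 was higher at the 8-cell stage, 3 at the 4-cell stage and 9 within 2-fold, with a median of -0.61. Both lists stand against 9.71% and 18.2% of all tested genes and an all-gene median of -0.11. Cbx8, a chromodomain reader of trimethylated H3K27, was above 1 in 13 of 24 and 4 of 26 blastomeres, with medians of 4.20 FPKM and 0. Yaf2 had medians of 5.47 and 0.821, and the Polyhomeotic subunit Phc2 2.97 and 0.201. Phc1, the paralogue of Phc2, went from 0.0106 to 3.23. Cbx8, Phc2 and Phc1 each passed the filter only through the stage in which they were higher, so these directions were built into their choice.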

How the data were processed

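Single blastomeres were sequenced by Smart-seq2. The authors aligned the reads to mm10 with STAR 2.5.1b, counted uniquely aligned reads on Refseq genes with HTSeq and deposited FPKM values in 1 gene table per stage, per the labels and the study's methods. The gene lengths behind the FPKM values, and which total they were scaled to, are not given in the sources used here. The study lists uniquely mapped reads for each blastomere, but the columns were not matched to these. The repeat tables were not used here. The stage of each table was taken from its numbers of rows and columns, set against the numbers in the paper. All 50 columns were mapped to a stage only. Each stage was therefore treated as 1 sample, and the 78 labelled samples were not matched to columns.

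Coordinates and exon lengths came from RefSeq's GRCm38.p6 annotation (mm10 is the same assembly), matched by Entrez identifier. The FPKM denominator of each blastomere was estimated from the smallest value steps of genes with 1 curated transcript, and 90.6% to 96.4% of the low values then came out as whole fragments, within 0.1 of a fragment. The step was tested on simulated data, but that outcome is not given here. Without molecular identifiers, a fragment is not an independent molecule. Stage differences used log2(FPKM+1), a pseudocount of 1, genes that exceeded 1 in 50% or more of the cells of a stage and a threshold of 2-fold, which with a pseudocount understates differences of low genes. Spearman correlations ran over the blastomeres of a stage. The genes named beside the 10 enzymes are their 7 paralogues and the 8 partners with the largest stage differences, and any other is marked as chosen after its values were seen. The enzymes, lists and comparisons were chosen with earlier results of these data known. Alternatives covered the summary, pseudocount, scaling, filters, thresholds and blastomeres left out. Python 3.11.15, numpy 2.4.6, pandas 2.3.3, scipy 1.17.1 and matplotlib 3.10.9 were used.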

Additional observations from a re-analysis of the deposited data

How the results depend on the processing

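No paired analysis was possible because no column name gives an embryo or a replicate number, and no result here comes from a test. Read numbers that the study lists per embryo and cell were not used to place columns, so differences between embryos were not tested. For a value listed at 0, the 3 fragments that a count of 0 allows bound the sequenced fragments and not the RNA of the cell.

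Kmt2b did not pass the filter and is outside the counts here, although with a pseudocount of 0.1 its difference was 1.13, past 2-fold. Kdm1b passed only through the 4-cell stage, so a steady count adds no support for it. The count of enzymes past 2-fold was 1, Kdm1b, and stayed at 1 with a pseudocount of 0.1, both other scalings, without the columns named NA and without any single blastomere. It was 3 with the mean in place of the median (Kdm1b, Suz12 and Kdm6a), against 20.4% of all tested genes, 2 without blastomeres under 5000 genes (Kdm1b and Kdm6a), against 28.2%, and 4 at 1.5-fold (Kdm1b, Suz12, Kdm6a and Kdm6b), where the background was 48.5% of all tested genes. That background was 27.9% at 2-fold, 16.9% over genes above 1 in at least 1 blastomere of each stage and 14.8% with no filter, both of which add genes with medians at 0 in both stages. Rescaling, size factors, a pseudocount of 0.1, the mean and the left-out blastomeres gave 20.4% to 33.8%, and 2 of these alternatives and the 1.5-fold one were added after seeing the data. Of the 10 stage differences, 9 kept their sign over the 57 settings, and Eed was at -0.01 in 1 of them and otherwise above 0. Most of these settings left out a single blastomere. The 4-cell median of Kmt2b and the 8-cell median of Kdm1b were listed at 0, so their median differences could not change sign. The count of kept signs is therefore no measure of steadiness.

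The H3K4 ratio of -4.96 at the 4-cell stage was -2.65 as a difference of mean log2 values, -3.83 without Kmt2d and Kdm5b and -2.76 with the paralogues. That of -4.32 at the 8-cell stage was -2.31 as a difference of mean log2 values and -2.46 with the paralogues. Without Kmt2d and Kdm5b, writers exceeded erasers in 1 8-cell blastomere. Leaving out 1 blastomere gave -4.98 to -4.95 and -4.34 to -4.29, and 3.97 to 3.98 and 3.62 to 3.71 for H3K27. The median correlation of 8-cell writer pairs, 0.0757, became 0.186 after rescaling and -0.0197 with 1 blastomere left out. That of 8-cell eraser pairs, 0.0417, became 0.135 with the number of genes above 1 held fixed and -0.052 with 1 blastomere left out. For 4-cell writer pairs, with 0.167, the alternatives gave 0.110 to 0.253. Every class median, mixed pairs included, moved by less than the spread between its pairs. Single pairs vary more than their median, so this is no measure of steadiness. Medians near 0 changed sign under some alternatives.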
